A study of Homo sapiens with 4 samples.

Results

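The genes described here are the nuclear genes for the subunits of the 5 complexes of oxidative phosphorylation, 89 of the 19817 protein-coding RefSeq genes on chromosomes 1 to 22 and X. Membership was decided by symbol alone. Included were symbols starting with NDUFA, NDUFB, NDUFC, NDUFS or NDUFV (assembly factors named NDUFAF left out), UQCR, COX4 to COX8 or ATP5. SDHA, SDHB, SDHC, SDHD and CYC1 were added. The group itself, and the gene lists and motifs used below, were chosen with earlier results of these data known. Complex I has 38 of the 89 genes, complex II 4, complex III 10, complex IV 17 and complex V 20. ETS1 and RUNX1, a pair of transcription factors of the T lineage, were mapped by CUT&Tag in 6T-CEM, a line of human T-cell acute lymphoblastic leukaemia. In CUT&Tag an antibody brings the transposase Tn5 to its target on chromatin, which cuts and tags the DNA nearby. There were 2 libraries with an antibody to ETS1 and 2 with an antibody to RUNX1, all from this line, and the labels name no treatment, time or genetic change. The labels do not say whether the libraries of an antibody came from separate cultures, so the spread between them, and any p-value, measures only these libraries and may be technical.

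Oxidative phosphorylation takes place in the inner mitochondrial membrane. Complexes I and II feed electrons from NADH and succinate into ubiquinone, complex III passes them to cytochrome c, complex IV passes them to oxygen, and complex V uses the resulting proton gradient to make ATP. Nearly all subunits are encoded in the nucleus, in housekeeping genes whose promoters are known for sites of the nuclear respiratory factors NRF1 and NRF2 (the latter, also called GABP, is itself an ETS-family factor) and of YY1.

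Sequence is shown for a few genes with an ETS1 region and the ETS-type motif CCGGAAG, which GABP, ETS1 and other ETS proteins can bind, before the listed start. They were picked after their values were seen, to show matches at different distances from the ETS1 summit. The sequences are from RefSeq (GRCh38.p14, the assembly of hg38), read 5′ to 3′ on the strand of the gene, and capitals mark a match to the motif on either strand. The first entry is 81 bases and the next pair are 150 bases, each ending at the base before the listed start. UQCRH lies at chr1:46303617-46303697 on the plus strand, UQCR11 at chr19:1605463-1605612 on the minus strand and COX6A1 at chr12:120437963-120438112 on the plus strand. The sequences for ATP5PD (chr17:75047053-75047081, minus strand), UQCRQ (chr5:132866577-132866605, plus strand) and ATP5PF (chr21:25735067-25735095, minus strand) give only the match with 11 bases on each side, since another gene covers these stretches. For ATP5F1E (chr20:59032330-59032357, minus strand) the capitals mark the RUNX motif TGTGGT. The last entry, NDUFB1 at chr14:92121707-92121856 on the minus strand, had one of the strongest ETS1 peaks and holds no CCGGAAG match.
UQCRH: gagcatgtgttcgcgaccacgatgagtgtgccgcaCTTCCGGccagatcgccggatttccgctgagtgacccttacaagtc
UQCR11: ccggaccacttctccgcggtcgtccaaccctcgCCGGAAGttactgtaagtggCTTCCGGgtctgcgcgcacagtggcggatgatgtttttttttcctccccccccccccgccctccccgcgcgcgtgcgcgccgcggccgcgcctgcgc
COX6A1: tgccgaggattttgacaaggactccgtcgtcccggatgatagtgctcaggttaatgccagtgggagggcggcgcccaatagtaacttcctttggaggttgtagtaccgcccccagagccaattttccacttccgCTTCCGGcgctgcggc
ATP5PD: ccgggaagataCTTCCGGaaccagccctc
UQCRQ: aatggtatctcCCGGAAGttacctcacga
ATP5PF: tgccaggggacCCGGAAGcacttaccctc
ATP5F1E: tcttccgcttcTGTGGTctgatcttcct
NDUFB1: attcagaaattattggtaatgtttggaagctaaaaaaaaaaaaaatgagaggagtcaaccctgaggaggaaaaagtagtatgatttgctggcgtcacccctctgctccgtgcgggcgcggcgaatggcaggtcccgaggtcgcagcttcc

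In UQCRH the ETS1 summit, the base where the authors placed the top of the peak, lay 3 bp from the centre of the match in each library. At COX6A1 it lay 34 and 46 bp away, at ATP5PD 61 and 60 bp, at ATP5PF 80 and 79 bp, and at UQCRQ 81 and 121 bp. In UQCR11 the nearer of its matches lay 138 and 139 bp from the summit. The RUNX motif of ATP5F1E lay 2 and 34 bp from the RUNX1 summits. A match describes the letters and does not show that the factor touched them.

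At the ends of the oxidative phosphorylation genes both factors were found, RUNX1 at most of the genes and ETS1 at fewer. A region was counted where both libraries of an antibody had a peak in one merged stretch, and it belonged to a gene if it touched the 1 kb on either side of the gene's outermost ends. ETS1 had such a region at 27 of the 89 genes (30.3%), where 19.0% of all protein-coding genes had one. RUNX1 had a region at 58 of 89 (65.2%), against 47.2% of all genes. Both factors were present at 26 genes (29.2%, all genes 18.7%), so ETS1 without RUNX1 occurred at 1 gene, UQCRQ. RUNX1 without ETS1 was seen at 32 genes, and 30 had neither. When only the 5′ end was used, for the 71 genes whose strand the RefSeq promoter table gives, ETS1 was at 25 (35.2%, all genes 19.2%) and RUNX1 at 46 (64.8%, all genes 46.6%). Counts of this kind were not tested against other genes.

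Complexes V and III had the highest shares with ETS1 and complex II had none. By complex, ETS1 was at 10 of 38 genes of complex I, 0 of 4 of complex II, 5 of 10 of complex III, 4 of 17 of complex IV and 8 of 20 of complex V. The RUNX1 counts in the same order were 28, 2, 6, 7 and 15. Of all genes, 19.0% had ETS1 and 47.2% had RUNX1. The ETS1 shares of complex I (26.3%) and complex IV (23.5%) were the nearest to that of all genes. With only stronger peaks (−log10 q of at least 20, explained below), the ETS1 counts in the same order were 3, 0, 3, 0 and 3 (all genes 10.8%). These counts are small, and those of complexes II and III, with 4 and 10 genes, carry little weight. The plot of shares by complex shows that RUNX1 was lowest at complex IV (41.2%) and reached 75% at complex V and 73.7% at complex I. Complex IV includes most of the genes for tissue-specific isoforms, described below.

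**Figure D1:**
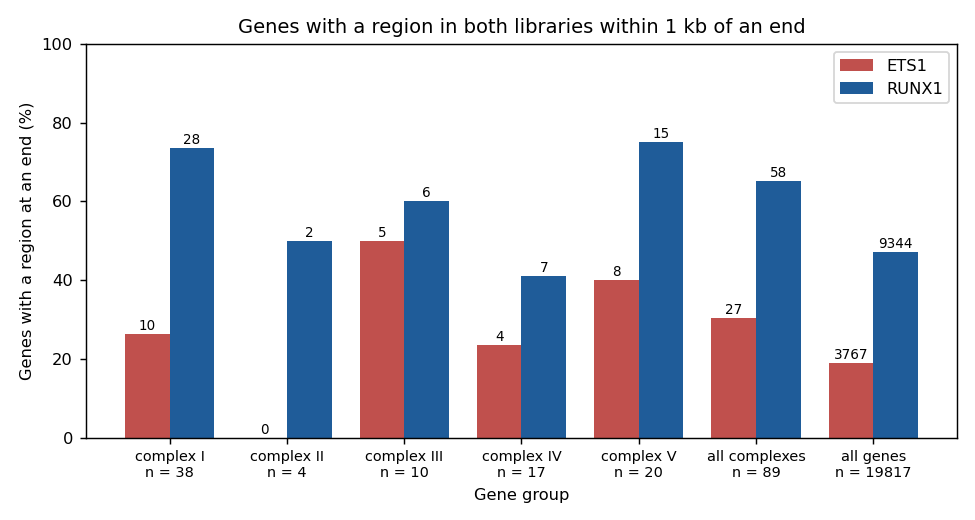
Share of genes (vertical axis, percent) with an ETS1 region (red) or a RUNX1 region (blue) in both libraries within 1 kb of an end, for each respiratory complex, for all 89 oxidative phosphorylation genes and for all 19817 genes; numbers on the bars are gene counts. Complex III and complex V have the tallest ETS1 bars (5 of 10 and 8 of 20), and complex II has none.

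Library by library, 31 and 29 of the genes had an ETS1 peak at an end in libraries 1 and 2, and 61 and 58 had a RUNX1 peak. For all genes the shares were 21.5% and 20.4% with ETS1 and 49.1% and 48.2% with RUNX1, below the 34.8%, 32.6%, 68.5% and 65.2% of the oxidative phosphorylation genes. The RUNX1 libraries had on average 29.5 more of these genes with a peak than the ETS1 libraries, and the groups did not overlap (exact permutation test over the 4 libraries, two-sided, p = 0.333, the smallest p this design allows). The RUNX1 lists were longer, with 25360 and 25001 peaks against 6082 and 5625 for ETS1. With every list cut to its 5611 strongest peaks, the difference changed sign, to 28 and 29 genes with ETS1 and 7 and 8 with RUNX1. How many reads each library had is not recorded in the peak lists, and the absolute depth is therefore unknown. Solved from each peak's fold and p, the median pileup at a summit was 54 and 51 reads or fragments for ETS1 and 75 and 71 for RUNX1.

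Complex I, the NADH dehydrogenase that starts the chain, had the single strongest ETS1 peak of the whole group, at NDUFA11, a membrane-arm accessory subunit. The fold over IgG, the authors' ratio of the signal at the summit to that expected from the antibody control, was 14.8 and 13.8 there in ETS1 libraries 1 and 2, with pileups of 261 and 231. RUNX1 at the same gene had folds of 18.4 and 18.8, with pileups of 436 and 424. The RUNX1 region (chr19:5903328-5905100) covered the 5′ end and the ETS1 region (chr19:5903795-5905012) began a few bases upstream of it. The ETS1 summits lay 515 and 534 bp upstream and the RUNX1 summits 740 bp upstream, and both regions are also within 1 kb of an end of VMAC. Which of the genes a shared region belongs to was not tested. The mean ETS1 fold, 14.3 ± 0.69 (SD, n = 2), was above that of 94.2% of all genes with an ETS1 region.

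NDUFB1, another accessory subunit, followed with ETS1 folds of 10.1 and 9.96 and RUNX1 folds of 7.41 and 7.20. Here the summits of all 4 libraries fell on the same base, 52 bp before the listed start, and an end of CPSF2 lies within 1 kb. NDUFS7, a core subunit that carries an iron-sulfur cluster near the ubiquinone site, had ETS1 folds of 7.01 and 7.47 and RUNX1 folds of 9.86 and 9.59. The regions of NDUFS7 with these folds had no other protein-coding gene end within 1 kb. A second, weaker RUNX1 region near its 3′ end (5.77 and 4.86) is also within 1 kb of an end of GAMT. NDUFV3, a small subunit of the NADH-binding module, had RUNX1 folds of 15.6 and 12.2 and ETS1 folds of 5.98 and 5.41. Its regions are also within 1 kb of an end of WDR4. Besides the genes named so far, ETS1 regions in complex I were present at NDUFB3, NDUFA2, NDUFB11, NDUFA13, NDUFB10 and NDUFV2. Their mean folds ran from 3.57 for NDUFV2 to 4.89 for NDUFB3. All 10 genes of complex I with ETS1 had RUNX1 as well, as did 3701 of the 3767 genes with ETS1 overall.

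The second highest RUNX1 fold in complex I was at NDUFA7, with 17.0 and 15.5, but at the 3′ end of the gene, where CD320 has an end within 1 kb. At its own 5′ end NDUFA7 had a weaker RUNX1 region, with folds of 6.68 and 7.25, within 1 kb of ends of RPS28 and KANK3. NDUFV1, the core subunit that binds NADH and the flavin cofactor, showed the same arrangement: the stronger region lay beyond the 3′ end (11.3 and 10.8) and the one at the 5′ end had folds of 7.69 and 6.98. For both genes the strongest peak was not the one at the gene's own start. Of the 7 nuclear core subunits, which carry the cofactors, 2 had ETS1 (NDUFS7 and NDUFV2) and 5 had RUNX1. Among the 31 accessory genes 8 had ETS1 and 23 had RUNX1, where 19.0% and 47.2% of all genes did. The readthrough gene NDUFC2-KCTD14 and NDUFC2 share 1 RUNX1 region, with folds of 4.23 and 6.16, so they are not separate observations. NDUFA13 had the lowest RUNX1 fold of all, 2.97 and 3.47, close to its 3′ end and away from its ETS1 region.

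Complex II, succinate dehydrogenase, also works in the citric acid cycle. Its catalytic subunits had RUNX1 and its membrane anchors did not. SDHB, the iron-sulfur subunit, had RUNX1 folds of 9.51 and 9.89 with summits 13 bp from the listed start in both libraries, and SDHA, the flavoprotein subunit, had 4.39 and 4.67 beside CCDC127. SDHC and SDHD, the anchors that bind ubiquinone, had no peak of either factor at an end in any library. With 4 genes these counts carry little weight.

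Complex III, the cytochrome bc1 complex, had ETS1 at 5 of its 10 genes, and the strongest 3 came in a narrow range. UQCRH, the hinge protein next to cytochrome c1, had ETS1 folds of 8.59 and 8.19 and RUNX1 folds of 6.79 and 7.02, at an end it shares with LRRC41. The small subunit gene UQCR11 had ETS1 folds of 8.23 and 8.21 and one of the highest RUNX1 folds, 16.9 and 20.6, with no other gene end within 1 kb. UQCRC2, one of the large core proteins, had ETS1 folds of 7.82 and 7.80 and RUNX1 folds of only 4.18 and 4.22.

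The redox subunits of complex III encoded in the nucleus differed from each other. CYC1, which encodes cytochrome c1, had ETS1 folds of 6.86 and 5.33 and RUNX1 folds of 10.7 and 10.2. UQCRFS1, which encodes the Rieske iron-sulfur protein, had no peak of either factor. Among the remaining subunits, UQCRC1, the partner of UQCRC2, had RUNX1 at both ends (6.91 and 6.19 at the 3′ end, 5.89 and 6.62 at the 5′ end) and an ETS1 peak in library 1 alone. UQCR10 had a weak RUNX1 region with folds of 3.40 and 3.84. UQCRQ was the only gene of the 89 with ETS1 and no RUNX1 region, and its ETS1 folds were low, 4.11 and 4.14, at an end within 1 kb of GDF9.

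Complex IV, cytochrome c oxidase, had both factors at 4 genes, and RUNX1 was above the median of all genes with a region (8.62) at COX5A and COX5B and below it at COX4I1 and COX6A1. COX5B and COX5A, regulatory subunits on the matrix side, had RUNX1 folds of 14.9 and 14.7, and of 14.6 and 13.6. Their ETS1 folds were 4.63 and 4.66 at COX5B, and 4.61 and 5.51 at COX5A, with pileups of 25 to 37. COX4I1, the common isoform of subunit 4, had RUNX1 folds of 7.63 and 7.83 with ETS1 at 3.71 and 3.17. Its regions are also within 1 kb of an end of EMC8. COX6A1 had RUNX1 folds of 7.01 and 6.18 and ETS1 folds of 4.11 and 4.16. COX8A, COX6B1 and COX6C had RUNX1 without ETS1 in both libraries.

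Several subunits of complexes IV and V exist in tissue-specific forms, and none of those forms had a region at a gene end. The 7 such genes in the set are COX4I2 (lung), COX6A2 and COX7A1 (heart and skeletal muscle), COX6B2, COX7B2 and COX8C (testis) and ATP5MGL. ETS1 and RUNX1 were each at 0 of 7, where 19.0% and 47.2% of all genes had a region. With 7 genes these counts carry little weight, above all for ETS1. COX6B2 had a RUNX1 peak in library 1 alone. Their common counterparts were mixed: COX4I1, COX6A1, COX6B1, COX8A and ATP5MG had RUNX1, while COX7A2 and COX7B had neither factor at an end. Without the isoforms, ETS1 was at 27 of 82 genes (32.9%) and RUNX1 at 58 of 82 (70.7%). Leaving out genes without a region could only raise these shares, and tissue-specific genes were not left out of all genes.

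Complex V, ATP synthase, held the strongest RUNX1 peak of the group, at ATP5F1B, which encodes the catalytic β subunit. RUNX1 libraries 1 and 2 had folds of 34.6 and 33.0 there, with pileups of 296 and 270, and the summits lay 1 bp from the gene end in both (region chr12:56645529-56646529). The mean of 33.8 ± 1.12 (SD, n = 2) was above that of 95.3% of all genes with a RUNX1 region. ETS1 at ATP5F1B was moderate, 6.19 and 7.07, with summits 4 and 23 bp from the same end. No other gene end lay within 1 kb of these regions, although BAZ2A has an end within 1 kb of an ATP5F1B end. All 5 genes of the F1 head had RUNX1 (complex V 15 of 20, all genes 47.2%). With 5 genes this count carries little weight. ATP5F1E (ε), at an end near PRELID3B, had 19.1 and 23.3, and ATP5F1D (δ) had 10.03 and 11.08. ATP5F1A (α) had 9.36 and 8.17 and ATP5F1C (γ) had 5.47 and 4.68. Of the 5, only ATP5F1B and ATP5F1E (4.32 and 4.73) also had ETS1 (all genes 19.0%). At ATP5F1D the RUNX1 summits lay 1627 and 159 bp from the gene end in libraries 1 and 2. Its RUNX1 folds therefore do not describe the same spot. The RUNX1 regions of ATP5F1A and ATP5F1C are also within 1 kb of ends of HAUS1 and KIN.

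The peripheral stalk, which holds the head still against the turning rotor, included the second strongest ETS1 peak. ATP5PD, subunit d of the stalk, had ETS1 folds of 11.5 and 10.9 with pileups of 98 and 86, and RUNX1 folds of 13.7 and 13.3. No other gene end lay within 1 kb of these regions, but the gene KCTD2 also covers the ETS motif match shown above. At ATP5PB (b) and ATP5PF (coupling factor 6) the ETS1 folds were low, 3.74 and 4.39, and 4.11 and 4.19, and ATP5PO had RUNX1 alone. The regions of ATP5PB are also within 1 kb of an end of WDR77. ATP5PF shares its end with GABPA, the gene for the DNA-binding subunit of GABP, so a single region stands for both genes. The 3 genes for the c subunit of the rotor ring, which encode the same mature protein, differed: ATP5MC1 had both factors, with ETS1 folds of 3.597 and 4.538, ATP5MC3 had RUNX1 alone and ATP5MC2 had neither at an end. ATP5MG had ETS1 folds of 5.43 and 4.98. ATP5IF1, which encodes the inhibitor of the reversed enzyme, had no peak.

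**Figure D2:**
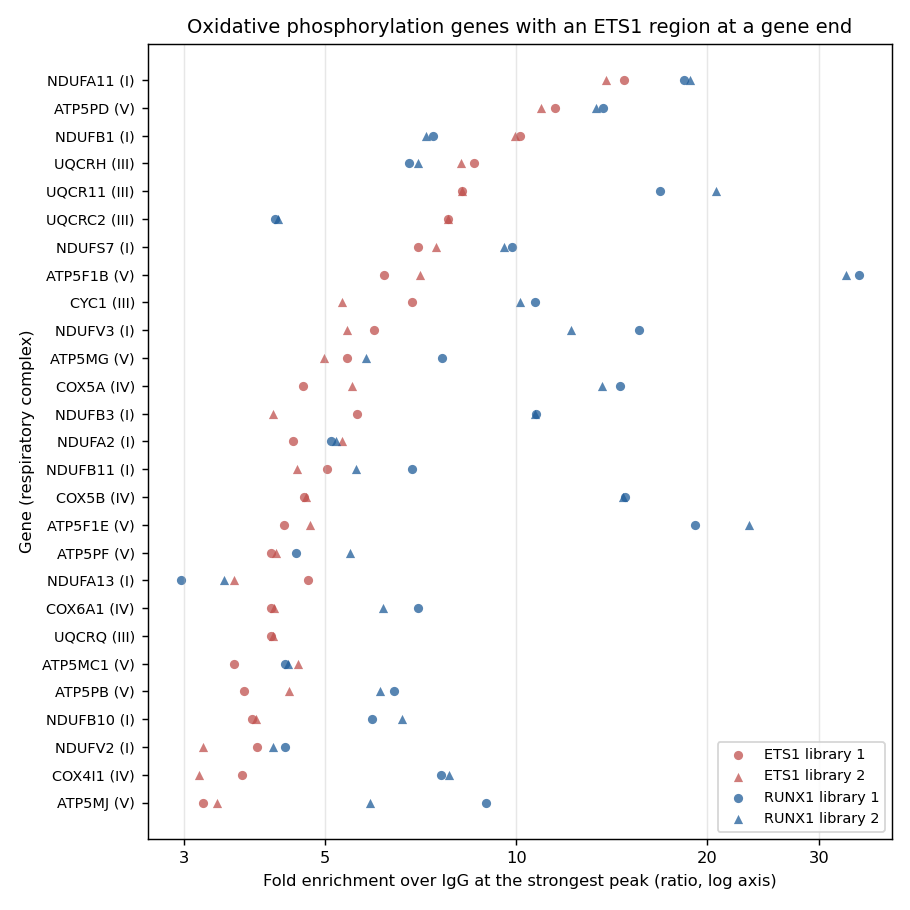
Fold over IgG at the strongest peak (horizontal axis, ratio, log scale) for the 27 genes with an ETS1 region, ordered by mean ETS1 fold; red marks ETS1, blue marks RUNX1, circles library 1 and triangles library 2. ETS1 falls from 14.8 and 13.8 at NDUFA11 to 3.21 and 3.38 at ATP5MJ, while RUNX1 at the same genes is scattered and has no point at UQCRQ.

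The folds of a gene in the libraries of 1 antibody differed by at most 1.52 times. The largest ratio between ETS1 libraries was 1.36 at NDUFB3 (5.63 and 4.15), followed by 1.31 at NDUFA13 (4.70 and 3.59). For RUNX1 it was 1.52 at ATP5MJ (8.96 and 5.89), a small membrane subunit of ATP synthase, and 1.46 at the region of NDUFC2. The order of the genes differed between the factors: UQCRH, NDUFB1, UQCRC2 and NDUFA13 had higher mean folds with ETS1 than with RUNX1, although folds of different antibodies are not on a common scale. In 8 genes a peak at an end was present in 1 library of an antibody only: UQCRC1, NDUFA7 and NDUFA6 (ETS1 library 1), COX8A and NDUFS8 (ETS1 library 2), NDUFS3 (library 1 of each antibody), and NDUFB8 and COX6B2 (RUNX1 library 1).

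The regions at oxidative phosphorylation genes were frequent but weak. The median mean fold over the 27 genes with ETS1 was 4.88 (range 3.30 to 14.3), against 5.92 over all 3767 genes with an ETS1 region. Over the 58 genes with RUNX1 it was 6.57 (range 3.22 to 33.8), against 8.62 over all 9344. The same order held in each library, with 4.70 and 4.73 against 5.89 and 5.87 for ETS1, and 6.88 and 6.35 against 8.75 and 8.48 for RUNX1. Median pileups were also lower, 49.5 against 63 for ETS1 and 83 against 106.5 for RUNX1, while the IgG expectations were near each other (8.64 against 9.78, and 11.2 against 11.4). The genes with ETS1 had higher RUNX1 folds than those without, 7.37 against 5.96, a smaller gap than in all genes (13.0 against 6.80). These medians are descriptions of genes chosen by name and were not tested.

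**Figure D3:**
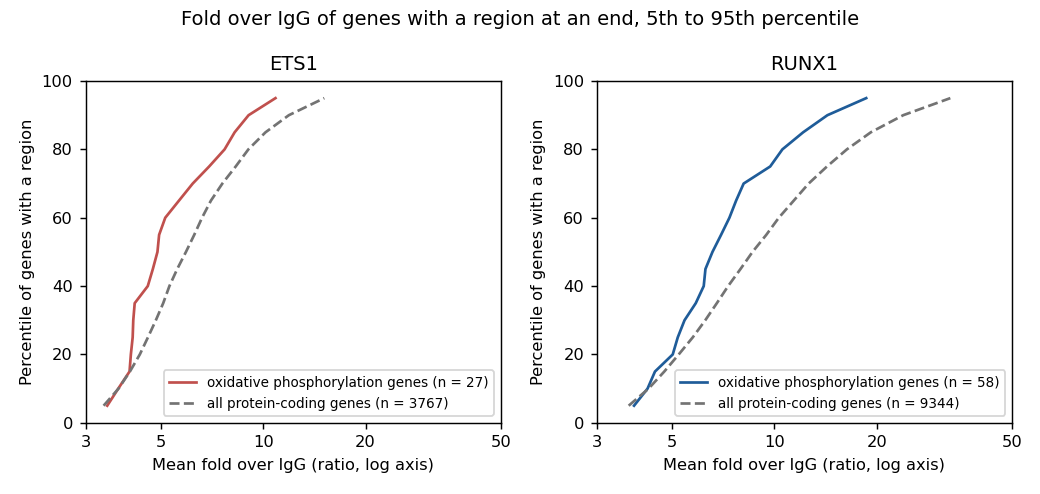
Percentile of genes (vertical axis) against mean fold over IgG (horizontal axis, ratio, log scale) from the 5th to the 95th percentile, for ETS1 (left) and RUNX1 (right); solid lines are oxidative phosphorylation genes with a region (27 and 58), dashed lines all genes with a region (3767 and 9344). Above the weakest genes the solid lines lie to the left, at medians of 4.88 against 5.92 and 6.57 against 8.62.

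The excess over other genes depended on how strong a peak had to be. With peaks of a −log10 q of at least 10, where q is the p-value adjusted for the number of places tested, ETS1 was at 19 of the genes (21.3%, all genes 16.7%) and RUNX1 at 56 (62.9%, all genes 45.4%). At 20 or more, ETS1 was at 9 (10.1%, all genes 10.8%), namely NDUFA11, NDUFB1, NDUFS7, UQCRH, UQCR11, UQCRC2, ATP5PD, ATP5PF and ATP5F1E, and RUNX1 at 48 (53.9%, all genes 39.0%). At 30 or more the counts were 6 for ETS1 (6.74%, all genes 7.24%) and 34 for RUNX1 (38.2%, all genes 33.2%). At 50 or more, ETS1 stayed at NDUFA11, NDUFB1 and ATP5PD (3.37%, all genes 3.82%). RUNX1 stayed at 14 genes (15.7%), below the 25.0% of all genes. Cutting each list to its 5611 strongest peaks kept nearly all ETS1 peaks, so for ETS1 this cut tells little about strength. ETS1 was then at 24 genes (27.0%, all genes 18.5%) and RUNX1 at 7 (7.87%, all genes 13.8%). Those 7 were ATP5F1B, ATP5F1E, NDUFA11, NDUFA7, NDUFV1, NDUFV3 and UQCR11. So at these genes the share above that of all genes was made up of peaks of low and middle strength.

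**Figure D4:**
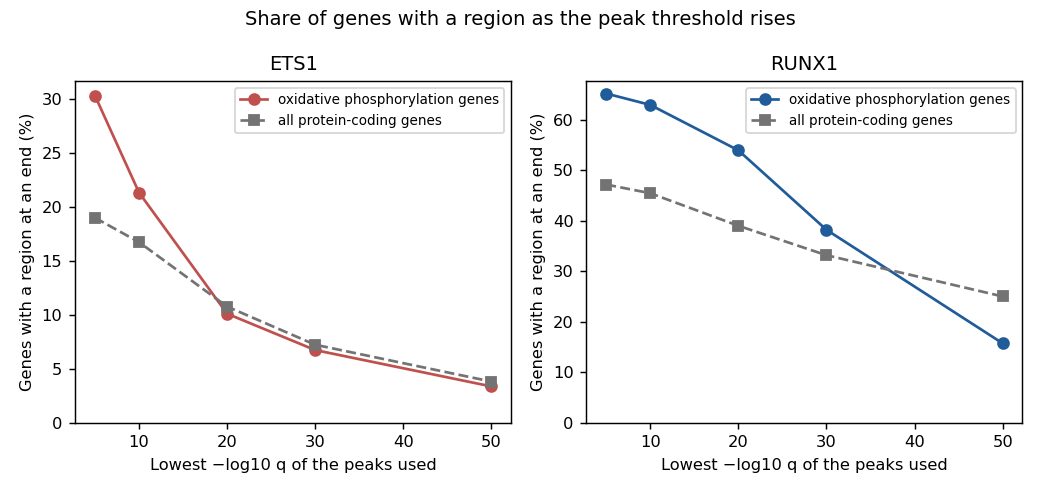
Share of genes with a region (vertical axis, percent) as the lowest accepted −log10 q rises from the authors' threshold near 5 to 50 (horizontal axis), for ETS1 (left) and RUNX1 (right); solid lines are the 89 oxidative phosphorylation genes, dashed lines all 19817 genes. The ETS1 lines meet at 20 (10.1% and 10.8%), and the RUNX1 lines have crossed by 50 (15.7% and 25.0%).

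Most summits sat at promoters. Among genes with a known strand, the 25 with ETS1 had a median summit 110 bp before the listed start, 20 of them lay within 300 bp of it and 22 lay upstream. For the 49 with RUNX1 the median was 25.5 bp upstream, 38 lay within 300 bp and 29 upstream. The RUNX1 summit was more than 1000 bp from any listed start at 6 genes, with the strongest peak near the other end. NDUFA7, NDUFV1 and UQCRC1 also had a weaker region at the 5′ end. At NDUFB6, NDUFB7 and NDUFA13 the region near the other end was the only RUNX1 region. Those of NDUFB6 and NDUFB7 are also within 1 kb of ends of TOPORS and TECR. At 25 of the 26 genes with both factors the regions overlapped, with a median distance between ETS1 and RUNX1 summits of 88.5 bp (0 to 224.5 bp). In 14 of these the distance was at most 100 bp (56%, against 65.0% of the 3042 such regions at all genes).

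**Figure D5:**
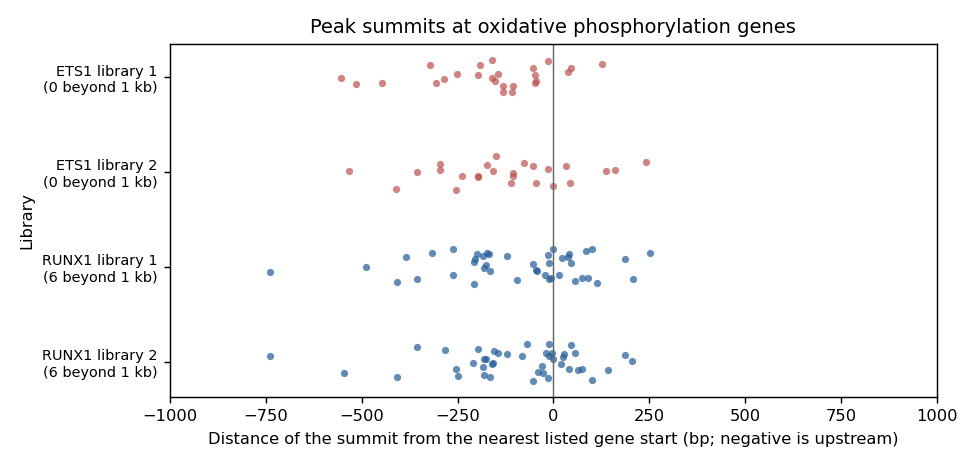
Distance of the peak summit from the nearest listed gene start (horizontal axis, bp, negative is upstream) in each of the 4 libraries (rows), 1 point for each oxidative phosphorylation gene with a region and a known strand; vertical scatter within a row has no meaning. ETS1 summits lie mostly upstream (22 of 25 genes), RUNX1 summits lie on both sides (29 of 49 upstream), and 6 RUNX1 genes fall outside the axis.

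Regions near the 1 kb limit were few. Inside it, the RUNX1 region of NDUFA13 came nearest to the limit, with its nearest edge 949 bp from the gene end. Outside, the nearest were an ETS1 region 1196 bp from NDUFB7 (folds 6.61 and 7.05) and a RUNX1 region 1814 bp from NDUFA5 (5.89 and 5.97). Both NDUFB7 and NDUFA5 encode accessory subunits of complex I.

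Many oxidative phosphorylation genes are short and have an end close to that of another gene. Their median length was 9242 bp, against 24505 bp for all genes, and 41 of 89 (46.1%) had an end of another protein-coding gene within 1 kb of their own, against 28.6% of all genes. Neighbours at either end and on either strand were counted, readthrough genes included. Among the 41, ETS1 was at 34.1% and RUNX1 at 75.6%, where all genes with such a neighbour had 35.9% and 68.7%. Among the 48 without a neighbour, ETS1 was at 27.1% and RUNX1 at 56.3%, where all such genes had 12.3% and 38.6%. For ETS1, then, the share above that of all genes was seen at the genes without a close neighbour. What part gene density has in the shares was not tested.

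The promoter sequences, 300 bases from 250 before to 50 after a listed start, were searched on both strands for 4 kinds of motif in the 71 genes with an entry. CCGGAAG was in 21 of them (29.6%), against 16.5% of the 15811 genes with an entry and 12.8% of all 22131 promoters. TGTGGT or TGCGGT, the RUNX motif, was in 19 (26.8%, genes 23.6%, promoters 19.0%). GCATGCGC, the NRF1 motif, was in 14 (19.7%, genes 4.89%, promoters 3.74%), and AAGATGGCG, a YY1 motif, in 9 (12.7%, genes 3.21%, promoters 2.42%). The last letters of CCGGAAG are the first letters of AAGATGGCG, so matches to these can overlap. Promoter composition was close to that of other genes, with a median GC content of 61.0% against 62.3% and 22 CpG per promoter against 21.6.

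Genes with the ETS motif more often had an ETS1 region, here as in all genes, and more often a RUNX1 region too. ETS1 was at 10 of the 21 genes with CCGGAAG (47.6%, all genes 34.5%) and at 15 of the 50 without it (30%, all genes 17.5%). RUNX1 was at 18 of the 21 (85.7%, all genes 68.7%) and at 31 of the 50 (62%, all genes 44.8%). These shares were not tested. In the 10 genes with motif and ETS1, the ETS1 summit lay at a median of 76.75 bp from the nearest match (3 to 267.5 bp), and within 100 bp in 6 of them. The other 11 genes with the motif, among them SDHB, SDHD, NDUFS1, NDUFS3, COX8A and ATP5F1A, had no ETS1 region. NDUFB1, one of the genes with the highest ETS1 folds, had no such match in the window searched, and at NDUFA11 the ETS1 summits lay outside that window. RUNX1 was at 14 of the 19 genes with a RUNX motif (73.7%, all genes 51.8%) and at 35 of the 52 without (67.3%, all genes 47.8%). Genes with RUNX1 had more CpG in the promoter than those without, with medians of 26 and 15.25, as in all genes with and without RUNX1 (26 and 14).

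Other genes that serve the same pathway gave the following counts, to be read beside the 19.0% of all genes with ETS1 and the 47.2% with RUNX1. Of 53 assembly factors, which build the complexes and insert their cofactors, 19 had ETS1 (35.8%), 40 had RUNX1 (75.5%) and 13 had neither. The highest ETS1 folds were at UQCC3, a complex III assembly factor (ETS1 8.98 and 9.02, RUNX1 mean 21.0 ± 1.36, SD, n = 2), and COX20, which helps assemble complex IV (ETS1 8.80 and 8.70, RUNX1 20.1 and 14.0). SDHAF1, for iron-sulfur delivery to SDHB, had RUNX1 folds of 18.5 and 21.1 and no ETS1. CYCS, the gene for cytochrome c, had ETS1 folds of 5.13 and 4.61 and RUNX1 folds of 4.85 and 4.99. Of 13 regulators of mitochondrial genes, 12 had RUNX1, led by YY1 (32.8 and 32.5) and ESRRA (26.4 and 26.2), and 5 had ETS1, with 7.81 and 9.43 at ESRRA. NRF1 had RUNX1 folds of 13.6 and 10.9, and TFAM, which packages mitochondrial DNA and starts its transcription, had 11.4 and 13.1. PPARGC1A, a coactivator of respiration in muscle, liver and brown fat, had neither factor. For comparison, RUNX1 was at all 6 T-lineage genes looked at (CD3D, CD3E, CD3G, CD2, CD7 and LCK) and ETS1 at 4, with mean RUNX1 folds from 9.18 at CD2 to 52.0 at CD3E. That of ATP5F1B, 33.8, was above the other 5 of these. Binding near a gene does not show its expression, which was not measured.

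The 30 genes without a region of either factor at an end were spread over all complexes. In complex I they included NDUFS3, NDUFS4, NDUFA5, NDUFA8, NDUFA9, NDUFAB1, NDUFB4, NDUFB8 and NDUFC1, in complex II SDHC and SDHD, and in complex III UQCRB, UQCRFS1 and UQCRHL. In complex IV they were COX7A2, COX7A2L, COX7B and COX7C besides the 6 isoforms named above, and in complex V ATP5IF1, ATP5MC2, ATP5MF, ATP5MF-PTCD1 and ATP5MGL. An absent region means that no peak passed the authors' threshold in both libraries, and weaker signal was not detectable from the lists.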

How the data were processed

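CUT&Tag libraries for ETS1 and RUNX1 (2 each) in 6T-CEM cells were deposited as peak lists. The submitters' processing notes name MACS3 3.0.0a6, Bowtie2 and bcl2fastq 2.17, with build hg38. Peak calling was done by the authors on single libraries against IgG, per the labels of the files. The Bowtie2 version, the mapping filters and the treatment of duplicates are not given in the sources read. For each peak the deposited list holds a fold over IgG (a ratio), −log10 p, −log10 q and a score that was not used. The lowest −log10 q lay between 5.00 and 5.03.

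Touching peaks from the libraries of an antibody were joined, and a region was kept if each library had a peak in it, which gave 5055 ETS1 and 22802 RUNX1 regions. A gene's value comes from its strongest region that touches the 1 kb around an outermost end (RefSeq GRCh38.p14, 153 genes on scaffolds left out). In each library it is the strongest peak of that region. The summit can lie beyond 1 kb, as at NDUFV1 with RUNX1 (1685 and 1684 bp from the end). Pileups were solved from fold and p (tolerance 0.01 in −log10 p, or 5e-05 of it). The steps were tested on simulated data and run in Python 3.11.15 with numpy 2.4.6, pandas 2.3.3 and scipy 1.17.1. The 18 genes without a promoter entry include UQCRHL, NDUFS5, SDHC, ATP5MC3, NDUFB5, ATP5MF-PTCD1, ATP5MF, UQCRB, COX6C, NDUFB9, CYC1, NDUFC2, ATP5F1B, ATP5F1D, COX7A1, COX4I2 and ATP5MGL. Single-gene results of 1 gene are not reported here. The only test was an exact permutation over the 4 libraries.

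The genes, lists and motifs were chosen with earlier results of these data known. Genes named singly were the 3 highest ETS1 and 3 highest RUNX1 folds per complex, genes with ETS1 alone, the 2 largest library ratios per factor, genes with no peak or with a peak in 1 library alone, tissue isoforms (NDUFA4L2 was not analysed here), SDHA to SDHD and CYC1. Others were named after their values were seen. Alternatives covered the window, the summit rule, the q threshold, equal list lengths, single libraries, the 5′ end and the peak nearest the end.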

Additional observations from a re-analysis of the deposited data

How the results depend on the processing

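The counts of genes with ETS1, RUNX1 and both (27, 58 and 26) stayed within 1.5 times of these values with windows of 500 bp or 5000 bp, with the summit required in the window, with a peak in either library, and at the 5′ end alone. With single libraries they ranged from 29 to 31, 58 to 61 and 28 to 30. Stronger peaks lowered them: at a −log10 q of at least 20 there were 9 with ETS1 and 8 with both, at 30 there were 6, 34 and 5, and at 50 there were 3, 14 and 2. The thresholds of 10, 30 and 50 were chosen after seeing the data. With equal numbers of strongest peaks RUNX1 was at 7 genes and both factors at 5, and the difference between antibodies turned from 29.5 to -21. By construction this setting removes most RUNX1 peaks and few ETS1 peaks. With summits of both factors within 100 bp in both libraries, 11 genes had both. The median ETS1 fold of 4.88 became 4.70 to 4.73 in single libraries, and the difference 29 to 30. Libraries share only a number (deviations of same-numbered libraries correlated at r = 0.0104 across 3701 genes, which are not independent), and the difference with the replicate block was 29.5 (exact sign-flip permutation p = 0.5). With the peak nearest a gene end, the RUNX1 fold of NDUFV1 became 7.33 and that of NDUFA7 6.97, and the other 83 of 85 single-gene folds moved by less than 1 SD. Most of these genes had a single region of the factor at their ends, so their folds could not change and say nothing of stability. The 2 libraries per antibody and pileups near 50 limit the precision of weak peaks.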

Other observations

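Some regions inside the genes were missed by a window on the outermost ends. Away from the ends there were 1 ETS1 region, in COX7A2L, and 7 RUNX1 regions in 6 genes. COX7A2L, which encodes a factor that helps complexes III and IV associate into supercomplexes, had no region at its outermost ends. At a second listed start inside the gene (chr2:42361217) it had ETS1 folds of 3.37 and 4.32 and RUNX1 folds of 8.43 and 9.02, and a further RUNX1 region nearby had 11.5 and 10.1. ATP5MC2, the c-subunit gene with neither factor at an end, had RUNX1 folds of 8.96 and 9.52 with summits 37 and 36 bp from an inner start. ATP5F1A had RUNX1 folds of 9.88 and 7.94 at an inner start 97 and 110 bp from the summits, besides the region at its end.

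Other inner RUNX1 regions were weaker. COX6B2 had folds of 3.26 and 3.68, and the readthrough gene ATP5MF-PTCD1 had 3.47 and 6.57 near the ends of CPSF4 and PTCD1.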
